A study of Mus musculus with 10 samples.

Results

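The transcripts described here are those of 41 genes whose proteins store, mask, adenylate, deadenylate or destroy maternal mRNA in the mouse oocyte. The members were given as a list of gene names. Each gene was represented by the probe set with the highest mean log2 intensity over the 10 arrays among those that the platform annotation assigns to that gene alone. This found a probe set for 39 of the 41 genes, of 18193 genes on the array that have such a probe set. Zar1l and Igf2bp2 were not matched and are not described. Papd4, which encodes a cytoplasmic poly(A) polymerase, was matched through its current name Tent2. A filter that kept probe sets exceeding the median of their array on 3 or more arrays was passed by 38 members and by 12710 genes in all. Cpsf1, a subunit of the cleavage and polyadenylation factor, did not pass it (intensity 10.6 to 14.7 over the 10 arrays) and was not tested.

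The samples were of 3 kinds, all from eggs of B6D2F1 females that had received equine chorionic gonadotropin and, 48 h later, 5 IU of human chorionic gonadotropin. MII oocytes are intact eggs that matured in the animal and stopped at metaphase of the second meiotic division (3 arrays, replicates 2 to 4). The spindle-chromosome complex (SCC) is the meiotic spindle with its chromosomes, removed from such oocytes by microsurgery (3 arrays, replicates 1 to 3). The cytoplast is the enucleated remainder (4 arrays, replicates 1 to 4). All 3 kinds share the hormone treatment and the removal of cumulus cells with hyaluronidase. The series asks whether maternal mRNAs are concentrated at the spindle. The labels call the arrays biological replicates but name neither animals nor the number of oocytes pooled, and the spread that p-values rest on may therefore be technical in part. Because up to 50 ng of RNA was amplified in 2 rounds and 10 µg of labelled cRNA was put on every array, intensities are relative amounts within a sample and not amounts per oocyte.

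A fully grown oocyte makes almost no new RNA, and it runs meiosis and the first steps of development on mRNA made earlier. That mRNA is kept silent with a short poly(A) tail by masking proteins and by repressor complexes around the helicase DDX6, the LSM14 proteins and PATL. During maturation cytoplasmic poly(A) polymerases lengthen the tails of chosen transcripts, poly(A)-binding proteins attach and translation starts, while other transcripts lose their tails to deadenylases, are decapped and are digested from the 5′ end. RNA-binding proteins such as DAZL, PUM2 and ZFP36L2 select the transcripts. The arrays report the mRNAs that encode these proteins, not the RNAs they bind.

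The array medians lay between 15.6 and 16.6. The 95th percentile of 34 genes of other tissues, at 65.5 to 84.1 on the different arrays, served as the background level. By this measure 23 of the 39 members were above background on all arrays, 7 on some and 9 on none. The number of arrays limits the precision. All 10 oocyte markers measured were above background on 9 of the 10 arrays. Of 18 cumulus and granulosa cell markers, 15 were above background on no array, the others being Foxl2, Kitl and Nr5a2, and their summed intensity was 645 to 785 in the SCC, 588 to 712 in the cytoplast and 601 to 720 in the MII oocyte. The log2 gap from the 5′ to the 3′ control probe set of beta-actin, a measure of how far transcripts were shortened, was 3.27 to 3.65 in the SCC and 3.66 to 5.29 in the cytoplast (exact two-sided permutation test over 3 and 4 arrays, p = 0.0571, where 0.0286 is the smallest possible). The same gap for the control Gapdh overlapped, at 2.32 to 3.23 in the SCC and 2.57 to 3.92 in the cytoplast (exact permutation p = 0.429). The 95th percentile of intensity was 623 to 797 in the SCC and 525.8 to 634 in the cytoplast (exact permutation p = 0.0571). Whether these measures play a part in the differences between SCC and cytoplast was not tested.

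Most of the storage and decay transcripts stood at relative levels in the SCC that could not be told from those in the cytoplast. Of the 38 members tested with limma, 1 was higher, the germ cell RNA-binding protein gene Dazl, and 1 was lower, the helicase gene Ddx6, at an adjusted p under 0.05. Each is 2.63% of the members. Over the 12710 genes 8.03% were higher and 0.275% lower (2.28% and 0.685% after cyclic loess, 1.9% and 0.881% after quantile normalization). At an unadjusted p under 0.05, 8 members were higher and 2 lower, and of all genes 18.4% and 3.89%. The median log2 difference of the members, SCC minus cytoplast, was 0.18, against 0.02 over all genes. Above 0 lay 25 members and below it 13, where 54.0% of all genes lay above 0. These sets differ in brightness. Among those with a mean log2 intensity above 8, the median was 0.19 over 19 members and 0.28 over 2833 genes. In that range 14 members and 77.6% of genes lay above 0. With the unfiltered Cpsf1 included, the median over 39 members was 0.17.

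For 33 of the 38 members the 95% interval of the difference lay within 2-fold either way (86.8%, against 87.7% of all genes). The other 5 were Ddx6, the poly(A) polymerase genes Papola and Papolg, the deadenylase gene Parn and the decapping enzyme gene Dcp2. The 33 include Ybx2, Cpsf2, Sympk, Dcp1b, Fxr2, Igf2bp1 and Caprin2, which were above background on no array. Intervals of members below background do not limit a difference in the transcript, here or in the comparisons with the MII oocyte. The arrays of the 2 groups did not overlap for 6 members that were higher in the SCC (15.8%) and for 3 that were lower (7.89%). Over all genes these shares were 15.5% and 5.86%, close to those of the members.

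**Figure D1:**
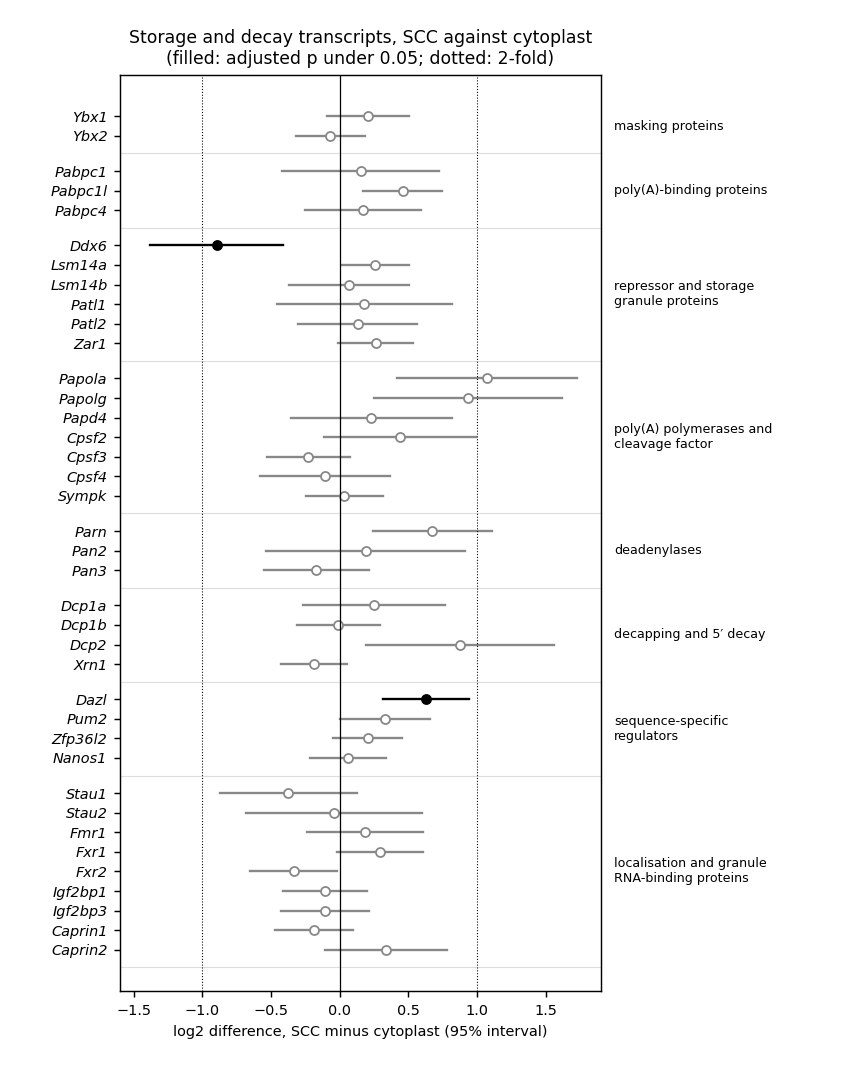
The log2 difference between SCC and cytoplast (horizontal axis) for the 38 members tested, grouped by role, with points for the limma estimate and bars for its 95% interval. Dazl on the higher side and Ddx6 on the lower side are the 2 filled points, and 33 of the 38 intervals lie between the dotted lines at a 2-fold difference.

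The masking proteins YBX1 and YBX2 coat stored mRNA. Ybx1 had intensities of 7217, 8321 and 7759 on the SCC arrays, 7437, 6410, 6098 and 7010 on the cytoplast arrays and 7593, 5874 and 8299 on the MII oocyte arrays. The groups overlapped, and the log2 difference between SCC and cytoplast was 0.21 (SE 0.14, 95% interval -0.09 to 0.51, adjusted p = 0.458). Its sign turned after cyclic loess (-0.13). Ybx2, the germ cell form, was below background on all arrays (57.7 to 59.8 in the SCC, 52.8 to 68.6 in the cytoplast and 57.4 to 64.4 in the MII oocyte), so no fold is given (adjusted p = 0.815).

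Poly(A)-binding proteins coat the tail and couple it to translation, and Pabpc1l encodes the form that predominates in oocytes and early embryos. Its intensity was 168, 173 and 191 in the SCC, 128, 111, 128 and 151 in the cytoplast and 135, 159 and 171 in the MII oocyte. All SCC arrays lay above all cytoplast arrays, 1.37-fold on average, and the difference missed the threshold (log2 0.46, SE 0.13, 95% interval 0.17 to 0.75, adjusted p = 0.0613). When each array was left out in turn it passed only without cytoplast replicate 4 (adjusted p = 0.0347), and the highest value was 0.235, without SCC replicate 3. After cyclic loess the log2 difference was 0.30 (limma adjusted p = 0.188), and after quantile normalization 0.25 (0.29). Pabpc4 spanned 336 to 431 in the SCC and 283 to 446 in the cytoplast (log2 0.17, SE 0.19, adjusted p = 0.701). Pabpc1, the form of most body cells, was at 106, 93.9 and 182 in the SCC and 131, 114, 122 and 79.4 in the cytoplast, again with overlap (adjusted p = 0.816). The sign for Pabpc4 turned after cyclic loess (-0.06) and quantile normalization (-0.12), and that for Pabpc1 after quantile normalization (-0.02).

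Among the repressors and storage granule proteins, 1 of 6 tested passed, Ddx6. This RNA helicase holds the repressor complex together and activates decapping. Its intensity was 39.2, 33.9 and 31.0 in the SCC, 59.6, 89.3, 63.6 and 50.6 in the cytoplast and 65.1, 47.2 and 87.3 in the MII oocyte. Every SCC array was below every array of the other 2 groups (adjusted p = 0.0337 against the cytoplast). The level was near background throughout, above it on 1 cytoplast array, 1 MII oocyte array and no SCC array, so no fold is given.

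The call for Ddx6 did not hold for its other probe sets or for all settings. Its other 2 probe sets kept by the filter were dimmer, below background on all arrays, and missed the threshold (adjusted p = 0.484 and 0.857), and the mean over the gene's probe sets gave adjusted p = 0.163. The adjusted p was 0.0606 after cyclic loess and 0.0551 after quantile normalization. Leaving out 1 cytoplast array gave 0.0787 (replicate 1), 0.0898 (replicate 2) or 0.0597 (replicate 3), and leaving out 1 SCC array gave 0.131 (replicate 2) or 0.159 (replicate 3). Over all settings run it ranged from 0.0137 to 0.163.

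Lsm14a encodes a partner of DDX6 in repressed mRNA particles. Its values were 10724, 12207 and 10874 in the SCC, 9456, 8899, 9102 and 10162 in the cytoplast and 11260, 9456 and 10448 in the MII oocyte. The SCC arrays were all above the cytoplast arrays, by 1.2-fold on average (log2 0.26, SE 0.11, 95% interval 0.02 to 0.50, adjusted p = 0.209), and the sign turned after cyclic loess (-0.08). A dimmer probe set of the gene had 329, 361 and 369 on the SCC arrays and 193, 218, 213 and 129 on the cytoplast arrays, without overlap, and it passed.

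The paralogue Lsm14b had 13903 to 15515 in the SCC, 12011 to 17021 in the cytoplast and 10923 to 19667 in the MII oocyte (log2 0.07, 95% interval -0.37 to 0.50, adjusted p = 0.908). Zar1, an oocyte protein needed for the egg-to-embryo transition that binds mRNA, was at 5274, 6033 and 5608 in the SCC, 4675, 4127, 4571 and 5504 in the cytoplast and 4632, 4321 and 5116 in the MII oocyte. SCC and cytoplast overlapped for Zar1 through cytoplast replicate 4 (log2 0.26, SE 0.12, adjusted p = 0.267). Patl1, whose protein bridges repression, deadenylation and decapping, and Patl2 overlapped as well (log2 0.18 and 0.13, adjusted p = 0.805 and 0.79). After cyclic loess the signs of Lsm14b (-0.28), Zar1 (-0.06) and Patl1 (-0.05) turned.

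None of the 7 poly(A) polymerase and cleavage factor genes tested passed with limma, while 2 of them, Papola and Papolg, had an unadjusted p under 0.05. Papola, the canonical nuclear poly(A) polymerase, had the widest gap of the members above background. Its intensity was 1415, 2137 and 2225 in the SCC, 877, 569, 898 and 1450 in the cytoplast and 858, 1022 and 1610 in the MII oocyte. SCC replicate 1 lay just below cytoplast replicate 4, and the other arrays of the 2 groups were apart. The mean ratio was 2.1-fold (log2 1.07, SE 0.3, 95% interval 0.42 to 1.73, adjusted p = 0.0546).

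Papola lay close to the threshold, and single arrays moved it across. It passed without cytoplast replicate 4 (adjusted p = 0.0186), SCC replicate 1 (0.0405), MII oocyte replicate 3 (0.0461) or MII oocyte replicate 4 (0.0461), and it had adjusted p = 0.207 without SCC replicate 2 and 0.227 without SCC replicate 3. The MII oocyte arrays enter only the estimate of the spread. The log2 difference of Papola was 0.80 after cyclic loess (limma adjusted p = 0.105) and 0.78 after quantile normalization (0.109). The mean of its probe sets gave 0.48 (0.17). Of the other probe sets of Papola, 3 had positive differences (log2 0.34 to 0.80) and 1 a negative one (-0.41), and none of these passed.

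Papolg, a second nuclear poly(A) polymerase, was below background on all arrays, although its values of 34.3, 48.9 and 33.9 in the SCC were all above the 23.6, 22.5, 27.5 and 11.2 of the cytoplast (adjusted p = 0.106). Papd4, the cytoplasmic polymerase, was at 1160, 1277 and 1519 in the SCC, 1208, 945, 811 and 1689 in the cytoplast and 1560, 875 and 1690 in the MII oocyte. The groups overlapped fully (log2 0.23, SE 0.27, 95% interval -0.36 to 0.82, adjusted p = 0.715), and the sign turned after cyclic loess (-0.04).

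Cleavage and polyadenylation specificity factor recognises the poly(A) signal, and CPSF3 is its endonuclease. Cpsf3 was at 385, 438 and 449 in the SCC, 492, 446, 500 and 554 in the cytoplast and 674, 473 and 570 in the MII oocyte, with SCC replicate 3 just above cytoplast replicate 2. It did not pass as deposited (log2 -0.23, SE 0.14, adjusted p = 0.4). It was lower after cyclic loess (log2 -0.47, adjusted p = 0.0367) and after quantile normalization (-0.55, adjusted p = 0.0266), the single member to pass under either scaling. The name of its probe set carries the ending that Affymetrix gave to probes that may also match other sequences, as do those of Pabpc4, Parn, Pan3 and Igf2bp1. A dimmer probe set of Cpsf3 had a log2 difference of 0.07 (adjusted p = 0.799). Cpsf4 had overlapping arrays (81.6 to 106 in the SCC and 85.2 to 122 in the cytoplast, adjusted p = 0.846). Cpsf2 (adjusted p = 0.38) and the scaffold gene Sympk (0.93) were not above background on any array.

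PARN and the PAN2-PAN3 complex shorten poly(A) tails. None of the 3 genes passed, and Parn had the smallest p. Its intensity was 191, 277 and 318 in the SCC, 171, 163, 194 and 123 in the cytoplast and 152, 197 and 196 in the MII oocyte. SCC replicate 1 lay below cytoplast replicate 3, and the other SCC arrays lay above all cytoplast and MII oocyte arrays. The ratio to the cytoplast was 1.59-fold (log2 0.67, SE 0.2, 95% interval 0.24 to 1.11, adjusted p = 0.0669), and of the 10 fits that left out 1 array it passed only in that without SCC replicate 1 (adjusted p = 0.02), with 0.23 without SCC replicate 2 and 0.289 without SCC replicate 3. The log2 difference of Parn was 0.49 after cyclic loess (limma adjusted p = 0.197) and 0.415 after quantile normalization (0.232). A dimmer probe set of Parn, below background on all arrays, did not pass (adjusted p = 0.726). The catalytic subunit gene Pan2 spanned 473 to 799 in the SCC, 358 to 914 in the cytoplast and 459 to 905 in the MII oocyte (log2 0.19, adjusted p = 0.822; -0.06 after cyclic loess). Its partner Pan3 had 4913, 4893 and 5159 in the SCC and 6225, 4927, 5288 and 6105 in the cytoplast, and the log2 difference was -0.17 (SE 0.17, adjusted p = 0.67). For Pan3 it was -0.50 after cyclic loess (limma adjusted p = 0.0572) and -0.43 after quantile normalization (0.083), short of the threshold.

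DCP2 removes the cap with DCP1 as its activator, and XRN1 then digests the RNA. Dcp2 was at 253, 363 and 365 in the SCC, 167, 149, 227 and 168 in the cytoplast and 110, 351 and 193 in the MII oocyte. The SCC arrays all lay above the cytoplast arrays, 1.83-fold on average, with a wide interval (log2 0.88, SE 0.31, 95% interval 0.19 to 1.56, adjusted p = 0.131). It passed without MII oocyte replicate 2 (adjusted p = 0.0435) or MII oocyte replicate 3 (0.0261), arrays that enter only the estimate of the spread. The other 8 such fits did not pass, and the adjusted p was 0.347 without SCC replicate 2 and 0.375 without SCC replicate 3. The log2 difference of Dcp2 was 0.68 after cyclic loess (limma adjusted p = 0.29) and 0.60 after quantile normalization (0.344).

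The other decapping genes did not separate the groups. Dcp1a spanned 5826 to 8644 in the SCC, 4412 to 8131 in the cytoplast and 4892 to 8190 in the MII oocyte (log2 0.25, 95% interval -0.27 to 0.77, adjusted p = 0.635; -0.08 after cyclic loess). Dcp1b was not above background on any array (adjusted p = 0.98). Xrn1 was at 77.5, 71.0 and 65.9 in the SCC and 77.2, 77.6, 86.6 and 83.6 in the cytoplast, where only the first SCC value reached the range of the cytoplast (log2 -0.19, SE 0.11, adjusted p = 0.395).

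Of the sequence-specific regulators, 1 of 4 passed. DAZL binds the untranslated regions of maternal transcripts and promotes their translation during maturation. Dazl had an intensity of 987, 1203 and 1052 in the SCC, 609, 599, 759 and 853 in the cytoplast and 851, 830 and 817 in the MII oocyte. All SCC arrays exceeded all arrays of the other 2 groups. Dazl averaged 704.9 ± 123 over the cytoplast arrays (SD, n = 4) and 1081 ± 111 over the SCC arrays (SD, n = 3), a ratio of 1.55-fold (log2 0.63, SE 0.14, 95% interval 0.32 to 0.94, adjusted p = 0.024).

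This call for Dazl depended on scaling and on single arrays. After cyclic loess the log2 difference was 0.37 (adjusted p = 0.153) and after quantile normalization 0.33 (adjusted p = 0.209). The adjusted p was 0.0791 or 0.0733 when cytoplast replicate 1 or 2 was left out and 0.124 or 0.0923 when SCC replicate 2 or 3 was, and it ranged from 0.0122 to 0.209 over all settings. A second probe set of Dazl averaged 622.8 ± 224 over the cytoplast arrays (SD, n = 4) and 713.7 ± 76.6 over the SCC arrays (SD, n = 3), which overlapped (log2 0.29, SE 0.32, adjusted p = 0.698).

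Pum2 encodes a Pumilio repressor that recruits deadenylases. It was at 1153, 1582 and 1371 in the SCC, 1175, 928, 1070 and 1166 in the cytoplast and 1521, 1149 and 1175 in the MII oocyte, with 1 SCC array inside the range of the cytoplast (log2 0.33, SE 0.15, adjusted p = 0.247). Zfp36l2, which binds AU-rich elements and speeds decay, had 78.7 to 85.9 in the SCC and 61.9 to 79.4 in the cytoplast (adjusted p = 0.368). The repressor Nanos1 had 173 to 201 in the SCC and 170.5 to 202 in the cytoplast, a near complete overlap (log2 0.06, 95% interval -0.22 to 0.34, adjusted p = 0.857; -0.12 after cyclic loess).

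**Figure D2:**
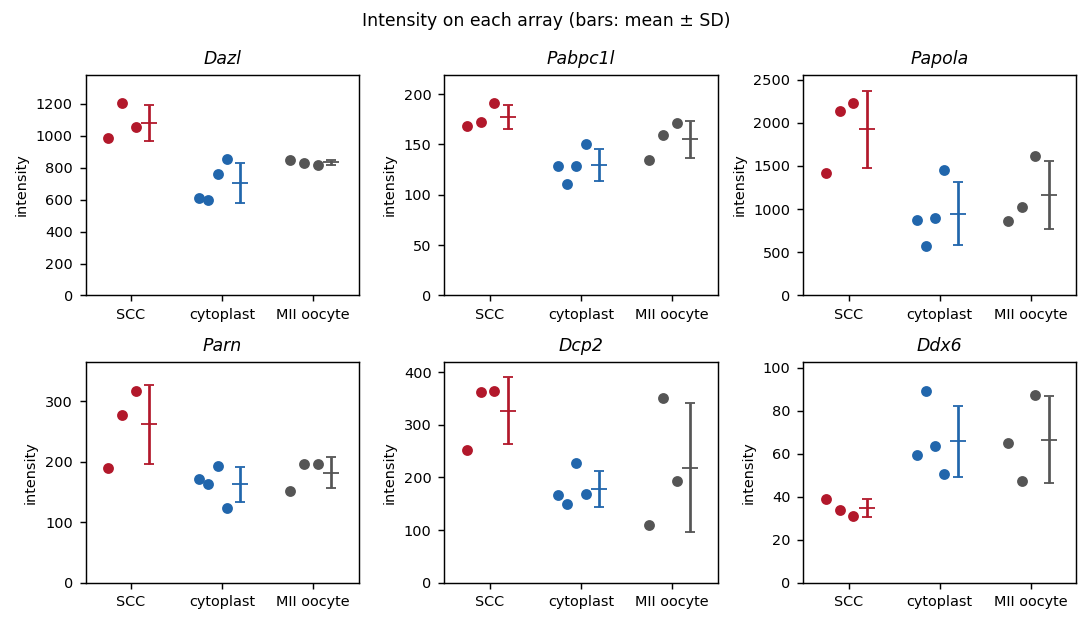
Intensity (linear scale from 0) on each array for 6 members in the SCC, cytoplast and MII oocyte, with the mean and SD of each group beside the points. Dazl and Ddx6 passed the test between SCC and cytoplast, and the SCC arrays of Papola and Parn overlap the cytoplast through SCC replicate 1.

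None of the 9 genes of localisation and granule RNA-binding proteins passed. By the representative probe set 6 of the 9 had a negative difference, where 46.0% of all genes did. The sign depended on the probe set for several. Stau2, Igf2bp3 and Caprin1 also had probe sets with a positive difference, and Fxr1 had one with a negative difference. Staufen proteins bind double-stranded RNA and carry mRNA along the cytoskeleton. Stau1 was at 367, 348 and 366 in the SCC, 511, 432, 434 and 495 in the cytoplast and 827, 346 and 484 in the MII oocyte. Every SCC array was below every cytoplast array, 1.3-fold on average, but the MII oocyte values spread widely around both (log2 -0.37, SE 0.23, 95% interval -0.87 to 0.12, adjusted p = 0.411). Stau2 overlapped (119 to 186 in the SCC and 93.6 to 221 in the cytoplast, adjusted p = 0.959).

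The fragile X family of translational regulators had differences of both signs. Fxr1 was at 929, 1100 and 895 in the SCC and 778, 701, 835 and 865 in the cytoplast, without overlap (log2 0.29, SE 0.14, adjusted p = 0.285), while its MII oocyte values of 1084, 770 and 1015 overlapped both groups. The sign of Fxr1 turned after quantile normalization (-0.01). Fxr2 was below background on all arrays, and its SCC values of 42.3, 43.1 and 48.0 lay below the 69.0, 57.1, 51.5 and 48.5 of the cytoplast (adjusted p = 0.215). Fmr1 overlapped, with 309 to 515 in the SCC and 290 to 412 in the cytoplast (adjusted p = 0.676), and its sign turned after cyclic loess (-0.05).

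IGF2BP proteins protect bound mRNA from decay. Igf2bp3 had 2649, 2863 and 2866 in the SCC, 2980, 2847, 2802 and 3434 in the cytoplast and 3376, 2477 and 3767 in the MII oocyte. The groups overlapped (log2 -0.11, SE 0.15, 95% interval -0.43 to 0.21, adjusted p = 0.764). The difference for Igf2bp3 was -0.41 after cyclic loess (limma adjusted p = 0.0606) and -0.39 after quantile normalization (0.0785), short of the threshold. Igf2bp1 was not above background on any array (adjusted p = 0.744). The stress granule protein gene Caprin1 spanned 233 to 333 in the SCC and 314 to 345 in the cytoplast (log2 -0.19, adjusted p = 0.478). This was the lowest difference among its 6 probe sets kept by the filter, which reached 0.75, and none of them passed. The representative probe set of Caprin1 was at -0.41 after cyclic loess (limma adjusted p = 0.0869) and -0.49 after quantile normalization (0.0556). Caprin2 was below background on all arrays (adjusted p = 0.406).

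The median difference of the members depended on the scaling between arrays, and it was near 0 under both other scalings. The median log2 difference of 0.18 became -0.06 after cyclic loess, with 14 members above 0 and 24 below, and -0.05 after quantile normalization, with 15 above and 23 below. Over all genes the median was 0.02, -0.01 and -0.03 in the same order. Bright genes in general shifted likewise: among those with a mean log2 intensity above 8, the median was 0.28 over 2833 genes and 0.19 over the 19 members in that range as deposited, with 77.6% of these genes and 14 of these members above 0. After cyclic loess these medians were 0.01 and -0.06, and after quantile normalization -0.0014 and -0.09. No member was higher under either scaling, and Cpsf3 was the member lower under both.

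**Figure D3:**
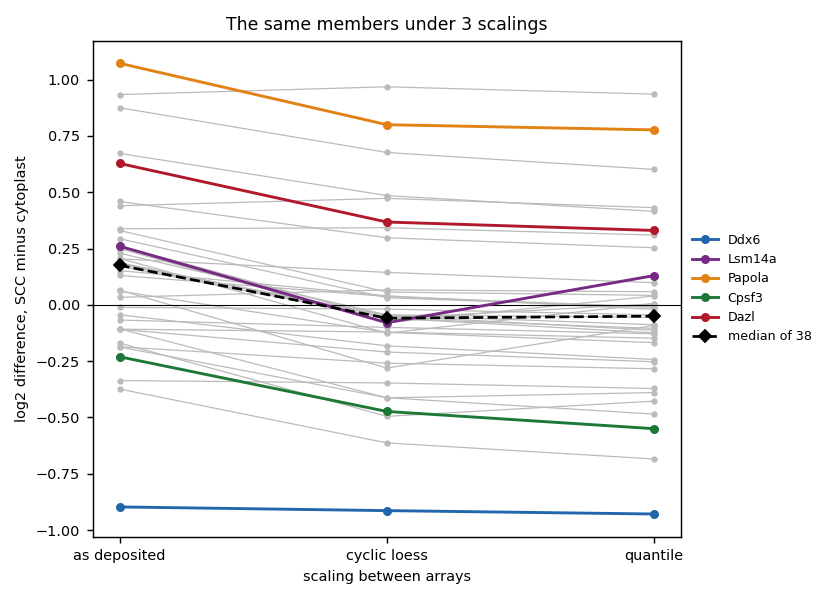
The log2 difference between SCC and cytoplast (vertical axis) of each of the 38 members as deposited, after cyclic loess and after quantile normalization (horizontal axis), with 5 genes coloured and the median of the members dashed. The median goes from 0.18 to -0.06 and -0.05 and Dazl from 0.63 to 0.37 and 0.33; Ddx6, also coloured, was near background and its differences are not read as a size.

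Different probe sets of a gene gave different answers for several members. The filter kept 79 probe sets of members, of which 3 were higher and 1 was lower. Among all 23737 kept, the shares were 6.74% and 0.274%. The 3 belong to Dazl, Lsm14a and Fxr1, and the lower one to Ddx6. For Lsm14a the probe set that passed was dimmer than the representative one. Its cytoplast arrays averaged 188.3 ± 41 (SD, n = 4) and its SCC arrays 353.1 ± 21.2 (SD, n = 3), a ratio of 1.91-fold (log2 0.93, SE 0.21, adjusted p = 0.0227). The other 2 probe sets of Lsm14a had log2 differences of 0.26 and 0.29. For Fxr1 it was a probe set that averaged 613.8 ± 65 over the 4 cytoplast arrays and 971.9 ± 176 over the 3 SCC arrays (± SD), a ratio of 1.57-fold (log2 0.65, SE 0.14, adjusted p = 0.0221). Neither passed after cyclic loess (adjusted p = 0.13 for Lsm14a and 0.151 for Fxr1).

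Among the 24 members with at least 2 such probe sets, the differences had 1 sign in 13 genes and both signs in 11. The range between probe sets of a gene was 0.345 at the median (log2) and widest for Papola (1.48), and these ranges include probe sets that were not above background.

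**Figure D4:**
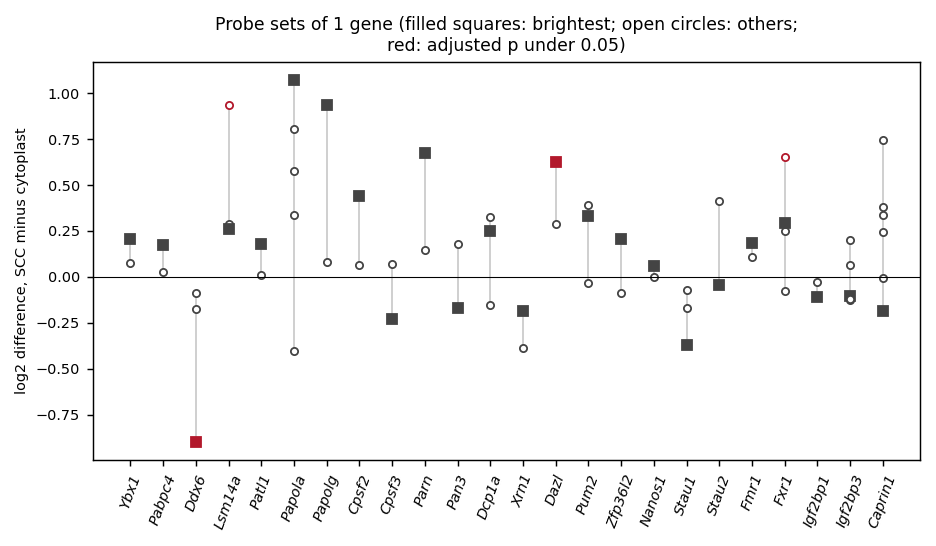
The log2 difference between SCC and cytoplast (vertical axis) of every probe set that passed the filter, for the 24 members with at least 2 of them (horizontal axis). The red points are those of Ddx6, Lsm14a, Dazl and Fxr1 that passed the test, and Papola has the widest range, 1.48.

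Against the intact MII oocyte, no member of the 38 was higher or lower in the SCC by limma. Over all genes 0.0472% were higher and 0.0% lower. At an unadjusted p under 0.05, 4 members were higher (Dazl, Parn, Zfp36l2 and Papola) and 4 lower (Ddx6, Cpsf3, Xrn1 and Caprin1), against 9.45% and 3.83% of all genes. The smallest adjusted p was that of Ddx6, 0.159, for a gene near background. Zfp36l2 and Xrn1 were near background too: Zfp36l2 was above it on no MII oocyte array, and Xrn1 on 1 of the 3 SCC arrays. Dazl had a log2 difference of 0.37 (SE 0.15, 95% interval 0.04 to 0.70, adjusted p = 0.348), Papola of 0.75 (SE 0.32, adjusted p = 0.376) and Cpsf3 of -0.42 (SE 0.15, adjusted p = 0.265). Without MII oocyte replicate 3, Dcp2 was higher and Ddx6 lower, where 2.03% of all genes were higher and 1.22% lower. The median of the members was 0.01, against 0.0008 over all genes, and the 95% interval lay within 2-fold for 29 of 38 members (76.3%, against 90.8% of all genes).

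Between the cytoplast and the MII oocyte, no member passed with limma and none had an unadjusted p under 0.05, where 0.0% of all genes passed in either direction and 0.928% were higher and 3.75% lower at the unadjusted level. The comparisons with the SCC and with the MII oocyte share arrays, so they are not independent. The median of the members was -0.13, against -0.06 over all genes, and it was -0.01 after cyclic loess and after quantile normalization. Among those with a mean log2 intensity above 8, the median as deposited was -0.18 for members and for genes. For 36 of 38 members the 95% interval lay within 2-fold (94.7%, against 97.1% of all genes), the others being Pan2 and Stau2. Stau2 had the smallest p, with 164, 221, 120 and 93.6 in the cytoplast and 77.5, 80.8 and 133 in the MII oocyte (log2 0.60, SE 0.29, adjusted p = 0.926).

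**Figure D5:**
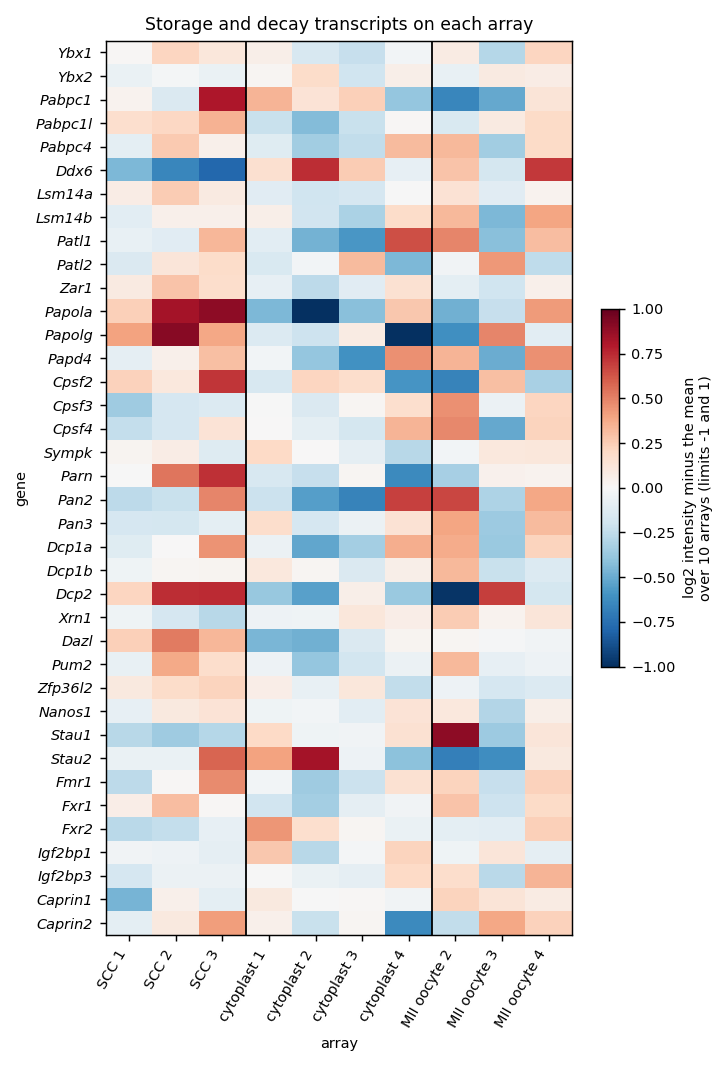
Each member's log2 intensity on an array minus its mean over the 10 arrays (colour, cut off at -1 and 1), with genes as rows and arrays as columns in the order SCC, cytoplast, MII oocyte. The rows of Dazl and Ddx6 separate the SCC arrays from the others, and Patl1, Papd4, Pan2 and Dcp1a are high on SCC replicate 3, cytoplast replicate 4 and MII oocyte replicates 2 and 4.

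Other genes of the same pathways were counted in the comparison of SCC and cytoplast. Of 105 listed, 84 passed the filter, and 8 were higher and none lower (9.52% higher, close to the 8.03% of all genes). The median log2 difference was 0.13 against 0.02 over all genes, without matching for brightness. No gene passed among 12 of the CCR4-NOT deadenylase and its partners or 13 of the exosome, which degrades RNA from the 3′ end. At an unadjusted p under 0.05 by limma, 2 of the former were higher and 1 lower, 3 of the latter were higher, and of all 84 genes 26 were higher and 1 lower, where 18.4% and 3.89% of all genes on the array were. The share higher among the 84 exceeded that of all genes. Because the list was written with earlier results of these data known, this excess is not read as a result. Of 3 polyadenylation regulators of the CPEB family, Cpeb3 (2.58-fold, log2 1.37, SE 0.26, adjusted p = 0.0128) and Cpeb4 (1.99-fold, SE 0.14 on the log2 scale, adjusted p = 0.00471) were higher. Among 21 other regulators Larp4, a poly(A)-binding La-related protein, was higher (617.6 ± 70.6 over 4 cytoplast arrays and 1203 ± 184 over 3 SCC arrays, ± SD; 1.94-fold, adjusted p = 0.00555). These 3 also passed after cyclic loess (adjusted p = 0.0222, 0.0175 and 0.0224) and after quantile normalization (0.0307, 0.0224 and 0.0327).

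The remaining 5 passed as deposited and under neither other scaling. Ythdf3 and Ythdc1, of 6 tested genes of uridylation and methyladenosine reading, were 1.35-fold and 1.48-fold higher. Smg8, of 7 of nonsense-mediated decay, was 1.66-fold higher, and Wdr33, of 12 of nuclear cleavage and polyadenylation, 1.46-fold. Lsm6, of 10 of the LSM ring and decapping co-factors, passed (adjusted p = 0.0362) at intensities below background on all arrays.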

How the data were processed

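The deposited table holds probe set intensities on a linear scale. Per the submitters' processing notes, the authors used RMA, a background correction, normalization and probe summary. Of its version and settings the sources used here say nothing. The deposited arrays did not share 1 distribution, as their 95th percentiles ran from 525.84 (cytoplast replicate 2) to 797.08 (SCC replicate 3). Because the planned tests were for a log2 scale, intensities were converted before any step. Without controls, 23737 probe sets exceeded their array's median on 3 or more arrays. They were fitted with limma 3.58.1 (R 4.3.3), all 10 arrays sharing 1 estimate of spread, and adjusted by Benjamini-Hochberg, two-sided, at 0.05. The step was tested on simulated data. Gene names came from the platform annotation, without coordinates.

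Background on an array was the 95th percentile of 34 genes of other tissues (Cd8a and Mbp lay above it throughout). Where both groups were below it no fold is given. The members, lists and tests were chosen with earlier results of these data known. Values on every array were planned for members that passed, that did not overlap between SCC and cytoplast, or that had the 2 smallest p in their role class; others were added after their values were seen. Alternatives were cyclic loess, quantile normalization, no filter, a filter at the 75th percentile, only the compared arrays, the replicate number as a block, the hybridisation control level as a covariate, the mean of a gene's probe sets, and leaving out each array. No label ties equal replicate numbers to a shared source, and residuals of same-numbered arrays correlated at 0.0214 on average over 8 pairs (-0.304 to 0.614).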

Additional observations from a re-analysis of the deposited data

How the results depend on the processing

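Between SCC and cytoplast, the count of members higher, 1 as reported, was 0 after cyclic loess (2.28% of all genes were higher) and 0 after quantile normalization (1.9%), 3 with the stricter filter (15.2%), 3 with only the compared arrays (9.32%), 5 with the hybridisation control level as a covariate (Pabpc1l, Papola, Papolg, Parn and Dazl; 13.6%) and 2 with the mean of a gene's probe sets (Pabpc1l and Lsm14a; 7.42%). With the replicate number as a block it was 3 (Pabpc1l, Papola and Dazl; 9.12% of all genes); the pairing of the numbers was not shown. The count lower, 1 as reported, was 0 with the mean of a gene's probe sets (0.291% of all genes). It stayed at 1 under both other scalings, but the member was Cpsf3 in place of Ddx6. Leaving out each array in turn gave 0 to 3 higher and 0 to 1 lower against the cytoplast (1.2% to 10.2% and 0.0% to 0.834% of all genes). Against the MII oocyte it gave 0 to 1 higher and 0 to 1 lower (0.0% to 2.03% and 0.0% to 1.22% of all genes). No member was higher than in the cytoplast without cytoplast replicate 1 or 2 or SCC replicate 2 or 3, and none was lower without cytoplast replicate 1, 2 or 3 or SCC replicate 2 or 3. The calls against the MII oocyte came without its replicate 3. The median of the members moved from 0.18 to -0.0594 after cyclic loess and -0.0503 under quantile normalization. The cause of these changes was not tested. Between cytoplast and MII oocyte no setting gave a call. Of single members' values, 15 calls against the cytoplast were lost under an alternative and 22 were gained, no called value changed sign, and 40 uncalled ones did. Members near background, such as Ddx6, or below it, such as Papolg, have values limited by their signal.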

Other observations

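For 6 members, the arrays with the brightest spiked-in hybridisation controls were also those with the highest intensity, across all 3 kinds of sample. The 4 arrays on which these controls were brightest (SCC replicate 3, cytoplast replicate 4 and MII oocyte replicates 2 and 4, mean log2 11.109 or more) were separated from the other 6 (10.683 or less) after the control levels were seen, and no label names a batch. Patl1, Papd4, Cpsf4, Pan2, Dcp1a and Fmr1 had a higher intensity on each of the 4 arrays than on any of the other 6. These are 15.8% of the 38 members tested, against 6.04% of all genes, and no member showed the opposite order, against 0.747% of genes. The shares were not matched for brightness. A mean log2 intensity above 8 was found for 19 of the 38 members and 2833 of 12710 genes, and for all of the named members but Cpsf4. Whether brightness plays a part was not tested. Pan2, the catalytic subunit of a deadenylase, was at 741 to 914 on the 4 arrays and at 358 to 490 on the others, and the decapping activator Dcp1a was at 7396 to 8644 and 4412 to 6329. With the control level as a covariate, the log2 difference between SCC and cytoplast was 0.23 for Pan2 (adjusted p = 0.416) and 0.28 for Dcp1a (adjusted p = 0.191).

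The mean of the intact MII oocyte lay between those of its parts for 16 of the 38 members (42.1%), against 48.1% of all genes tested. Ybx2, known as an abundant masking protein of oocytes, had a single probe set assigned to it, which was not above background on any of the 10 arrays.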
